A study of Mus musculus with 2 samples.

Results

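The 52 genes described here encode the machinery that copies the genome in S phase (18 genes) and divides the copies in G2 phase and mitosis (34 genes, called G2M genes below). They were taken by symbol from a list of cell-cycle genes that was chosen with earlier results of these data known. Each of the 52 has 1 row among the 32285 genes of both count matrices. The data are 2 single-cell RNA-seq libraries of dissociated adult mouse striatum, labelled replicates 1 and 2 of a single untreated condition and enriched for glia. The labels give the age as 8-10 weeks and name the strain as C57/Bl6J in one field and as C57BL/6NTac in the protocol. There is no treated group, so the comparisons are between classes of cells within the libraries, and the labels do not say whether the replicates came from separate animals. The striatum lies against the lateral ventricle, and the labels do not say whether the wall of the ventricle was dissected away.

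A cell that prepares to divide first loads and fires replication origins, builds up deoxynucleotides and copies its DNA behind a sliding clamp. It then switches on cyclins, mitotic kinases, kinetochore proteins and spindle motors, most of which are destroyed again as mitosis ends. Most cells of the adult brain have left this cycle. Dividing cells there are known mainly from the ventricular wall, where progenitors give rise to migrating neuroblasts, and from oligodendrocyte precursors, with little division among resident microglia and vessel cells.

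The libraries held 6978 and 5437 cell barcodes with medians of 3852 and 5375 unique molecular identifiers (UMIs, counts of distinct captured RNA molecules), and shared 9 barcode sequences. After filters, 11995 cells remained and were clustered with 224 cell-cycle and cell-cycle-regulator genes left out, so that the members could not define the classes. Histone genes were not left out, and Hist1h2ap and Hist1h1b were among the leading genes of the neuroblast-like cluster. The clusters were named from marker genes as neuroblast-like (1101 and 440 cells), oligodendrocyte precursor (OPC)-like (305 and 345), oligodendrocyte-like (1187 and 1178), astrocyte-like (1588 and 1118), microglia-like (1118 and 1026), macrophage-like (93 and 78), endothelial-like (801 and 600), mural-like (313 and 242) and neuron-like (191 and 174), in libraries 1 and 2. The neuroblast-like cluster was led by Igfbpl1, Sox11 and Dlx6os1, and all 8 neuroblast markers were raised in it.

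Promoter sequences are shown first because S and G2M genes are textbook targets of different factors. E2F proteins bind many S-phase promoters, while the CCAAT-binding factor NF-Y and the complex that reads the cell cycle homology region (CHR) act on many G2M promoters. RefSeq promoters on GRCm38.p6, spanning 250 bases before to 50 bases after the transcription start, were held for 46 of the 52 members, 16 S genes with 18 promoters and 30 G2M genes with 30 promoters. Letters were matched exactly on both strands: TTTCCCGC, TTTGGCGC or TTCGCGC for E2F, CCAAT for NF-Y and TTTGAA for the CHR. An E2F match lay in 8 of 18 S promoters (44.4%), in 2 of 30 G2M promoters (6.67%) and in 3.06% of all 32851 promoters in the table. A CHR match lay in 22 of 30 G2M promoters (73.3%), in 4 of 18 S promoters (22.2%) and in 17.9% of all promoters. CCAAT did not separate the groups, with 13 of 18 S promoters (72.2%) and 22 of 30 G2M promoters (73.3%) against 37.4% of all promoters, and CCAAT and TTTGAA stood together in 60% of G2M, 16.7% of S and 6.95% of all promoters. A match describes the letters in this window only. Without TTTGGCGC and TTCGCGC, an E2F match remained in 16.7% of S promoters and 0% of G2M promoters, against 1.07% of all promoters.

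The 8 promoters printed here were picked to show these patterns and the members that depart from the rest in the values further on, among members whose RefSeq start lies at or upstream of the gene start in the GENCODE annotation. Each run is the 150 bases upstream of the RefSeq start, read 5′ to 3′ on the gene's strand, with the matched letters in capitals.
Mcm5 (helicase subunit, chr8:75109359-75109508, plus strand): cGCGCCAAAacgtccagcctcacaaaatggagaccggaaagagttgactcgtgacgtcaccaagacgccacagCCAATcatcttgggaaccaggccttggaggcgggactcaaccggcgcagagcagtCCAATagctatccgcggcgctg
Mcm6 (helicase subunit, chr1:128359706-128359855, minus strand): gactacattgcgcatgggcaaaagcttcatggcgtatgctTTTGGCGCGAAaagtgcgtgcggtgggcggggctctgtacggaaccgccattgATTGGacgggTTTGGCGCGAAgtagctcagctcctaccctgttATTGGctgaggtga
Mki67 (chromosome surface protein, chr7:135716380-135716529, minus strand): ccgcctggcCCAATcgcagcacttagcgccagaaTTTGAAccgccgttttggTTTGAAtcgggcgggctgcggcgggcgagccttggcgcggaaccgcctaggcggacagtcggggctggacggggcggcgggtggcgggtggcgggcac
Top2a (topoisomerase, chr11:99024190-99024339, minus strand): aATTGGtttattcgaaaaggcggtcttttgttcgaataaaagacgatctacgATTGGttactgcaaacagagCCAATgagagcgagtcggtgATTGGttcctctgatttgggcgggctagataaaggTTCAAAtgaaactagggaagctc
Hmgb2 (chromatin protein, chr8:57511693-57511842, plus strand): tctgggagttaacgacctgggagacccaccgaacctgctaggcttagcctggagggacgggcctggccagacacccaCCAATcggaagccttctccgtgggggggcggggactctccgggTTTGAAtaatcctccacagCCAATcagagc
Kif11 (spindle motor, chr19:37376232-37376381, plus strand): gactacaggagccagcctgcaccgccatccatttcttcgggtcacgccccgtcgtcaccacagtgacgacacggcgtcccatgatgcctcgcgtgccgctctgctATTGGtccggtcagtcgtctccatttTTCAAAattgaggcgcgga
Anln (anillin, chr9:22389207-22389356, minus strand): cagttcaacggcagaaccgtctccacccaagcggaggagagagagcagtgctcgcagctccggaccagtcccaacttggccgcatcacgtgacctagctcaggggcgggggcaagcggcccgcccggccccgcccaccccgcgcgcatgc
Nuf2 (kinetochore subunit, chr1:169531465-169531614, minus strand): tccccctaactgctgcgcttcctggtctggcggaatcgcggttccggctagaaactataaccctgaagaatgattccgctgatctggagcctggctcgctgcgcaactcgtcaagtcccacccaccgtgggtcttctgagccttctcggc
The capitals read the same strand as the run, so ATTGG is CCAAT and TTCAAA is TTTGAA on the other strand. In Mcm6 the E2F letters TTTGGCGC and GCGCGAA overlap, so its 4 matches come from 2 stretches. In the Top2a run, CCAAT letters occur 4 times and 1 CHR match starts 23 bases before the start. The Anln and Nuf2 runs hold none of the letters searched. The 300-base window of Anln has a TTTGAA match outside the printed run and counts among the 22, while that of Nuf2 has no match.

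All 52 members were higher in neuroblast-like cells than the mean log level of the other 8 classes, and 51 of the 52 were at their highest there in both libraries, above every value of any other of the 9 classes. The exception was Anln, whose level in neuroblast-like cells of library 1 lay below the arithmetic mean of the other classes. The share of all tested genes that were highest in neuroblast-like cells in this way was not counted. Every fold change over a group of classes below is against the mean of their log levels. The 34 G2M members had a median log2 fold change of 5.48 and the 18 S members one of 3.84, against −0.15 for all 15202 genes tested. Every member passed the quasi-likelihood test of edgeR (Benjamini-Hochberg adjusted p under 0.05 over all genes tested, the rule for every call below), with log2 fold changes from 1.33 for Anln to 6.67 for Top2a, where 30.4% of all tested genes were called higher. Both libraries enter this fit, with summed UMIs per class and library as the unit and library as a block. The p-values thus measure only how far class differences vary between the 2 libraries. The call held for all 52 members in every alternative that gave a test. The plot of levels by class and library shows the block of raised members in the neuroblast-like columns.

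**Figure D1:**
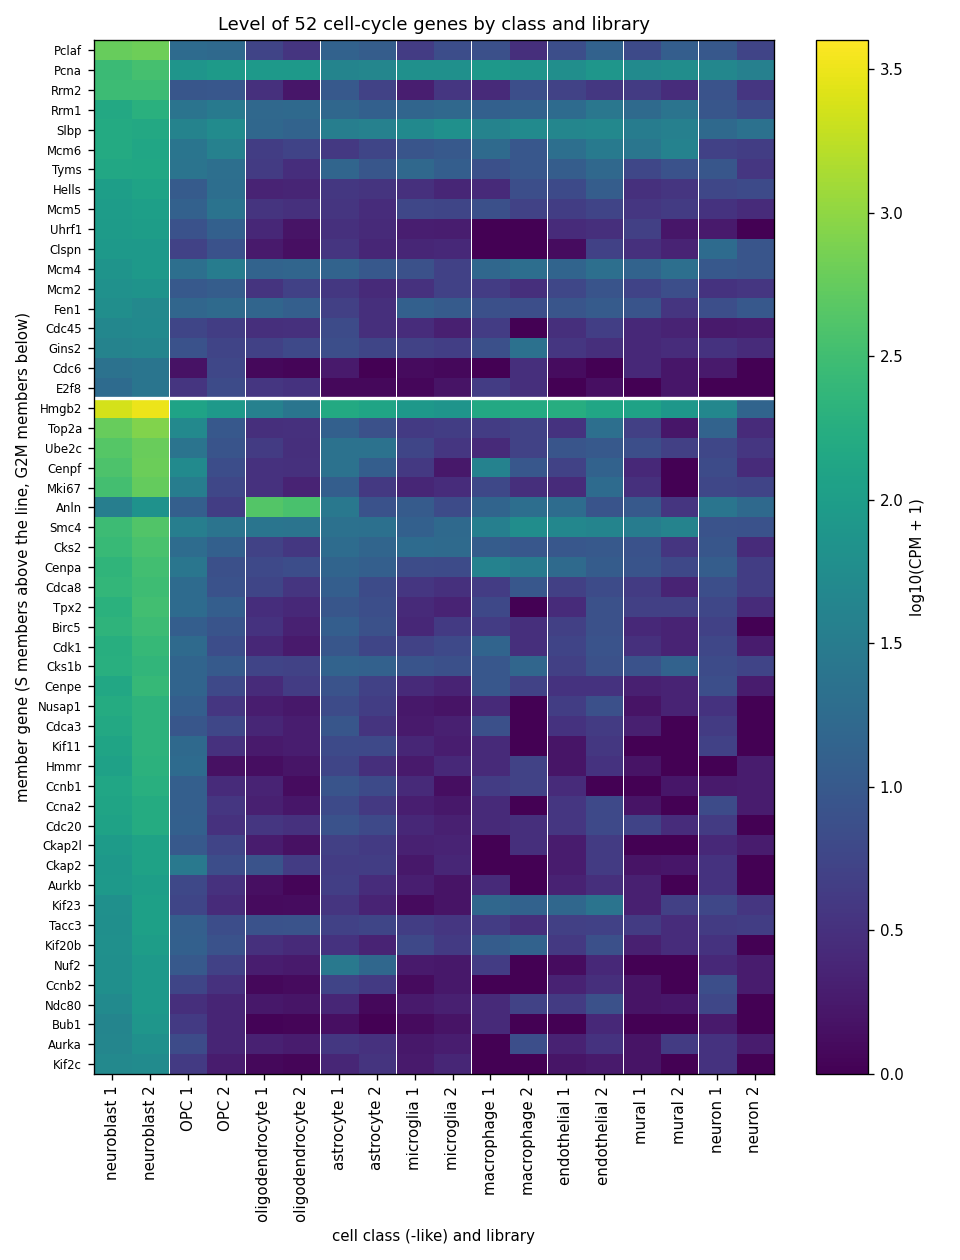
Level of each of the 52 members (one line per gene, S members above the white line and G2M members below) in each class and library, as log10 of CPM plus 1, where CPM are the gene's UMIs scaled to the total UMIs of the class. The neuroblast-like columns are the brightest in every line but that of Anln, which reached 434 and 373 CPM in oligodendrocyte-like cells.

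Among the S members, Pclaf of the replication fork and Rrm2 of nucleotide supply had the widest gaps to the next class, 36.4-fold and 35.2-fold, and the other genes of these roles had gaps of 3.50-fold to 6.99-fold, within the range of the remaining S members. Levels are given in CPM, the UMIs of a gene scaled to the total UMIs of its class, in libraries 1 and 2. A class level mixes how many of its cells hold the gene with how much each of them holds. Pclaf (chromosome 9, 65890237 to 65903266, plus strand), which encodes a protein that rides on the sliding clamp, stood at 573 and 639 CPM in neuroblast-like cells and at 17.4 and 15.9 CPM in OPC-like cells, the next class. In the 14 other class and library values, Pclaf ran from 2.09 to 12.6 CPM with a median of 6.22. The groups did not overlap, and the fitted log2 fold change over the other classes was 6.16 (SE 0.15). Clspn, the checkpoint adaptor at the fork, stood at 88.4 and 85.8 CPM in neuroblast-like cells. Its next class was neuron-like, at 16.9 and 8.01 CPM, ahead of OPC-like at 4.10 and 7.08 CPM. Pcna, the sliding clamp itself, was present in every class and had a narrower gap, with 280 and 346 CPM in neuroblast-like cells against 85.8 and 86.2 CPM in oligodendrocyte-like cells (log2 fold change over the other classes 2.17, SE 0.10). Fen1, the nuclease that trims lagging-strand fragments, was 3.50-fold higher than in the next class.

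Rrm2, the cycle-regulated subunit of ribonucleotide reductase, stood at 291 and 292 CPM in neuroblast-like cells and at 8.19 and 8.41 CPM in OPC-like cells. Its other values ran from 0.667 to 9.19 CPM with a median of 2.78, and its log2 fold change was 6.04 (SE 0.18). Rrm1, the partner subunit, was at 147 and 193 CPM against 23.6 and 28.3 CPM in OPC-like cells, with a log2 fold change of 3.29 (SE 0.12). The 2 subunits of the same enzyme thus differed in how far they fell outside the neuroblast-like class, 35.2-fold to the next class for Rrm2 and 6.56-fold for Rrm1. Tyms, which makes the thymidine nucleotide, lay near Rrm1, 6.45-fold above its next class.

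Of the genes that license and fire origins, Cdc45, which activates the replicative helicase, stood at 45.3 and 50.8 CPM in neuroblast-like cells and at 4.61 and 3.54 CPM in OPC-like cells, and its other values ran from 0 to 5.59 CPM with a median of 1.95. Cdc6, which loads the helicase, was at 21.9 and 24.1 CPM against 0.512 and 4.87 CPM in OPC-like cells, and from 0 to 2.09 CPM elsewhere. A count of 0 allowed a level of up to 0.200 to 6.26 CPM, depending on the UMIs of the class, so a value of 0 does not show that the gene was silent. The helicase subunits Mcm2, Mcm4, Mcm5 and Mcm6 and the helicase partner Gins2 were also highest in neuroblast-like cells, by 6.86-fold, 3.04-fold, 5.84-fold, 4.60-fold and 2.99-fold over the next class. For Mcm6 that class was mural-like (24.7 and 38.8 CPM) and for Gins2 it was macrophage-like (6.68 and 20.9 CPM), where the libraries lay far apart.

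Uhrf1, which carries DNA methylation over to the new strand, was at 94.6 and 100.1 CPM in neuroblast-like cells against 7.17 and 11.5 CPM in OPC-like cells and 0 to 3.76 CPM elsewhere. Hells, a chromatin remodeller needed for the same mark, was at 102 and 120 CPM against 9.73 and 19.0 CPM in OPC-like cells. Slbp, which binds the stem loop of histone mRNAs, had the smallest gap of all members that peaked in neuroblast-like cells, at 156 and 148 CPM against 49.4 and 62.4 CPM in microglia-like cells, or 2.72-fold. E2f8, a repressor of the E2F family, stood at 17 and 23.7 CPM in neuroblast-like cells and 2.56 and 5.75 CPM in OPC-like cells.

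By the median, the G2M members had wider gaps, 18.8-fold over the 33 that peaked in neuroblast-like cells against 6.50-fold over the 18 S members, although Pclaf and Rrm2 lay above the highest G2M gap of 28.2-fold (Birc5). Mki67 (chromosome 7, 135689784 to 135716361, minus strand), the usual antigen for dividing cells, stood at 329 and 561 CPM in neuroblast-like cells and at 32.8 and 4.87 CPM in OPC-like cells. Elsewhere it ran from 0 to 17.3 CPM with a median of 2.21, and its log2 fold change was 6.46 (SE 0.34). Top2a (chromosome 11, 98992943 to 99024189, minus strand), which untangles sister chromatids, was at 574 and 833 CPM against 48.6 and 8.85 CPM in OPC-like cells, with a log2 fold change of 6.67 (SE 0.31). For both genes the 2 OPC-like libraries differed by over 5-fold while the neuroblast-like libraries differed by under 2-fold. With every cell thinned to 1000 UMIs, a Top2a UMI was found in 12.9% and 20.0% of neuroblast-like cells, 0.491% and 0.825% of endothelial-like cells and 0.0870% and 0.258% of oligodendrocyte-like cells. The last of these were chosen as a background class for free RNA. They are the deepest of the 9 classes, with medians of 11615 and 12141 UMIs, and the free RNA of each class was not measured.

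Hmgb2, a chromatin protein of dividing cells, supplied 30.0% and 28.6% of all G2M UMIs in neuroblast-like cells. It stood at 2318 and 3168 CPM there and at 174 and 136 CPM in endothelial-like cells, the next class, so unlike most members it was well above 0 in every class. Smc4, a condensin subunit, was likewise found in every class, at 296 and 416 CPM against 35.0 and 56.3 CPM in macrophage-like cells. Genes of mitotic entry and of protein destruction also had wide gaps. Ube2c, which hands ubiquitin to mitotic substrates, was at 451 and 599 CPM in neuroblast-like cells and at 22.1 and 21.6 CPM in astrocyte-like cells, with a log2 fold change of 6.21 (SE 0.17). Cdca3, which helps trigger entry into mitosis, was at 146 and 209 CPM against 8.19 and 4.87 CPM in OPC-like cells, and Cdc20, the activator of the anaphase-promoting complex, at 116 and 161 CPM against 11.8 and 2.21 CPM.

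The kinetochore motor Cenpe stood at 145 and 257 CPM in neuroblast-like cells and at 13.3 and 5.31 CPM in OPC-like cells. Cenpf, a protein of the outer kinetochore, was at 391 and 621 CPM against 52.2 and 6.19 CPM in OPC-like cells, and its values elsewhere reached 38.4 CPM in macrophage-like cells of library 1 with a median of 3.56. The centromeric histone Cenpa was 8.17-fold above macrophage-like cells, Ndc80 13.4-fold above endothelial-like cells and its partner Nuf2 only 3.55-fold above astrocyte-like cells, a departure taken up with that class. Of the mitotic engine, Ccnb1 (cyclin B1) was at 132 and 183 CPM against 7.59 and 5.46 CPM in astrocyte-like cells, and Ccna2 (cyclin A2) at 124 and 163 CPM against 11.3 and 2.65 CPM in OPC-like cells. Cdk1, their kinase, its small partners Cks1b and Cks2, and Ccnb2 lay 16.9-fold to 19.6-fold above their next class.

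Birc5, the survivin subunit of the chromosomal passenger complex, stood at 221 and 295 CPM in neuroblast-like cells and at 10.8 and 7.52 CPM in OPC-like cells. Bub1, a spindle checkpoint kinase, was at 43.0 and 78.0 CPM against 3.07 and 1.33 CPM, with a median of 0.101 CPM over the 14 values of the other classes. The kinases Aurka and Aurkb, the passenger subunit Cdca8 and also Tpx2 lay 15.4-fold to 26.1-fold above OPC-like cells. Nusap1, which bundles spindle microtubules, was at 162 and 211 CPM against 10.8 and 2.65 CPM in OPC-like cells, and Kif2c, which takes microtubules apart at the kinetochore, at 48.7 and 54.3 CPM against 3.07 and 0.885 CPM. Kif23, a motor of the midzone, was the motor with the smallest gap, 4.47-fold above endothelial-like cells. All 34 G2M members were higher in library 2 than in library 1 in neuroblast-like cells, and with 1 value per library that difference was not tested. The share of all genes that were higher in library 2 in this class was not counted.

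**Figure D2:**
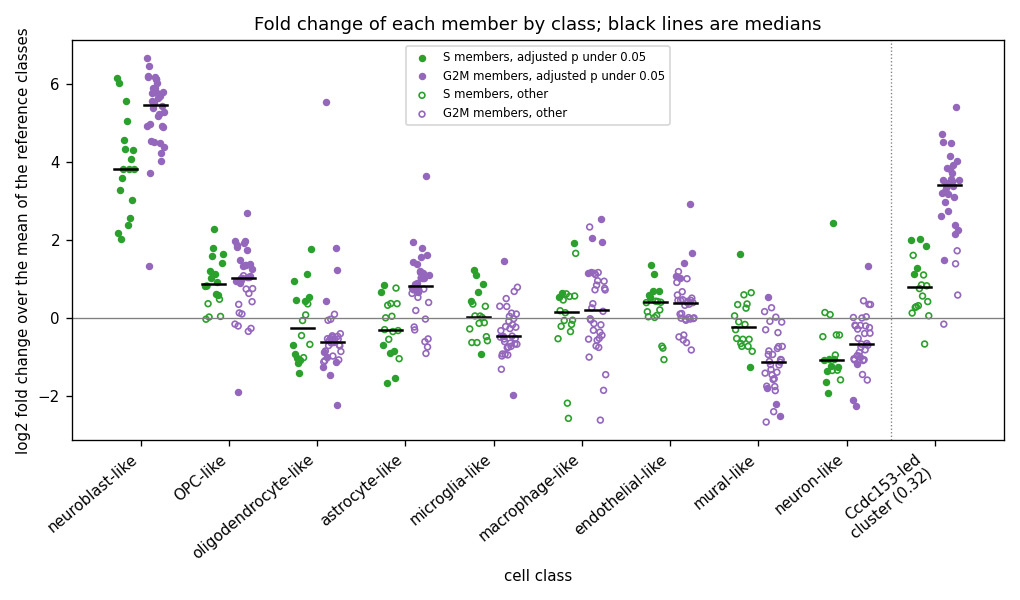
Fitted log2 fold change of each member (points, S members green and G2M members purple, filled where the adjusted p was under 0.05) against the mean log level of the reference classes, by class. Black lines mark medians, which reached 3.84 and 5.48 in neuroblast-like cells and 0.797 and 3.41 in the Ccdc153-led cluster found at resolution 0.32.

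The members were not spread evenly over the neuroblast-like cells. A cell was counted as having several members when at least 5 S members or at least 5 G2M members had a UMI, which is a range of a count and not a cell type. Of 11995 cells, 731 met this, and 466 of them (63.7%) were neuroblast-like. They made up 28.7% (exact 95% interval 26.0 to 31.5%) of neuroblast-like cells in library 1 and 34.1% (29.7 to 38.7%) in library 2. With each cell thinned to 2000 UMIs and shallower cells left out, the shares were 32.9% (29.2 to 36.7%) of 627 cells and 39.7% (33.7 to 45.9%) of 262 cells. Intervals cover counting error only. In library 1, 58 neuroblast-like cells had 4 or 5 G2M members and 61 had 4 or 5 S members, and in library 2 the numbers were 20 and 28.

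Depth set part of the count in other classes. Oligodendrocyte-like cells had 6.23% and 4.24% such cells with all UMIs, at a median of 25963 and 23018 UMIs in those cells, and 0.0987% (1 of 1013) and 0.0925% (1 of 1081) once thinned. OPC-like cells kept 2.80% (7 of 250) and 2.43% (7 of 288) after thinning, down from 5.25% and 8.99%. In the other 6 classes the thinned shares ran from 0 to 1.47%. The plot of these shares sets both depths side by side.

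**Figure D3:**
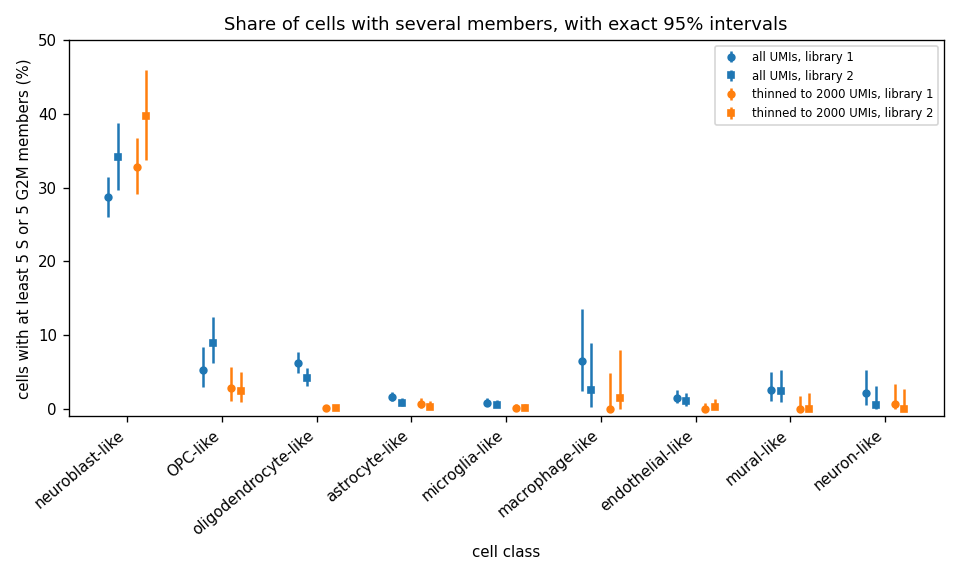
Share of cells with at least 5 S or 5 G2M members, by class and library (circles library 1, squares library 2), with all UMIs (blue) and with cells thinned to 2000 UMIs (orange); bars are exact binomial 95% intervals. Neuroblast-like cells sit between 28.7 and 39.7%, and OPC-like cells at 2.80 and 2.43% once thinned.

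Cells with several members held 95.2% and 96.2% of the S UMIs and 98.2% and 99.0% of the G2M UMIs of the neuroblast-like class, partly because the count defines them and because they were deeper, with medians of 11602 and 11065 UMIs against 1775 and 1737 in the rest. The remaining neuroblast-like cells had summed levels of 296 and 305 CPM for the S members and 345 and 347 CPM for the G2M members. With cells with several members taken out of the other 8 classes as well, the S level of those classes reached at most 245 CPM, below the neuroblast-like cells, and their G2M level ran from 77.8 to 557 CPM, a range that holds the neuroblast-like values. The top of that range, 557 and 462 CPM, is oligodendrocyte-like cells, where Anln made up 77.3% and 78.8% of the G2M UMIs of the class. The next highest values were 350 CPM in both libraries of macrophage-like cells, near the neuroblast-like ones.

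Neuroblast and progenitor markers, which the count did not use, were compared between the cells with and without several members after every cell was thinned to 2000 UMIs. Dcx, a microtubule protein of migrating neuroblasts, was found in 40.8% and 32.7% of the 206 and 104 cells with several members and in 78.4% and 70.9% of the 421 and 158 others. Igfbpl1 was found in 62.6% and 51.9% against 90.5% and 86.1%, and Tubb3, a neuronal tubulin, in 68.4% and 61.5% against 95.2% and 89.9%. Egfr, a growth factor receptor, went the other way, at 9.71% and 18.3% against 2.14% and 4.43%. Among other progenitor markers, Vim (47.6% and 56.7% against 20.4% and 24.7%) and Fabp7 (22.3% and 34.6% against 5.94% and 10.1%) did too. Dlx2 (41.7% and 53.8% against 42.3% and 46.8%) and Mycn (7.77% and 8.65% against 7.60% and 5.06%) did not separate the cells. Sox11 was near its ceiling in both, at 93.7% and 92.3% against 96.4% and 95.6%. Ccnd2, the D-type cyclin, was found in 98.1% and 97.1% of cells with several members and in 76.2% and 79.1% of the others, and the antiproliferative gene Btg1 in 39.8% and 34.6% against 80.5% and 70.3%. The other regulators compared were less distinct. Cdkn1b was found in 32.0% and 44.2% against 34.9% and 41.8%, and Cdkn1a in 3.88% and 6.73% against 2.38% and 1.27%. Cdkn1c was found in 5.34% and 1.92% against 8.08% and 8.23%, and Ccnd1 in 4.37% and 4.81% against 1.90% and 1.27%. In both libraries the exact 95% intervals of the 2 sets of cells do not overlap for Dcx, Igfbpl1, Tubb3, Egfr, Vim, Fabp7, Ccnd2 and Btg1. They overlap for Sox11, Dlx2, Mycn and Hes6, the last also a progenitor marker, and for Ccnd1, Cdkn1a, Cdkn1b and Cdkn1c. These intervals cover counting error over cells, which are not replicates, and no test is given. The share of all genes that separate the 2 sets of cells in this way was not counted.

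Within the neuroblast-like class, S and G2M members were often found together at full depth. In library 1, 192 cells had several of both, 43 had several S members only and 81 several G2M members only. In library 2 the numbers were 101, 14 and 35. The limit of 5 was the same for 18 S and 34 G2M members, so the numbers do not show how many cells were in each phase. They also changed with depth. In the thinned cells they were 96, 29 and 81 in library 1 and 45, 9 and 50 in library 2. Cells with several G2M members only thus outnumbered cells with both in thinned library 2. With at least 8 members required, they did so in both thinned libraries (27, 25 and 116, and 11, 9 and 70). The sorting below uses all UMIs. To reduce circularity, each gene was left out of the count that sorted the cells for it. The sorting still rests on the other members of the phase, and leaving a gene out moves cells near the limit of 5 that hold it, so that for Pclaf the S-only cells were 39 and 12 and the G2M-only cells 90 and 38. All 34 G2M members were higher in the G2M-only than in the S-only cells in both libraries, with median log2 ratios of 3.32 and 3.80 (10 CPM added to both levels). Of the 18 S members, 13 were higher in the S-only cells in both libraries, with medians over all 18 of −0.98 and −0.51, and Pclaf was the 1 S member higher in the G2M-only cells in both. The shares of all genes that were higher in either group of cells were not counted. Cdc6, which loads the helicase before replication, had no UMI in the 81 and 35 G2M-only cells and stood at 12.8 and 43.4 CPM in the S-only cells. In cells with both, 15 of the 18 S members reached their highest level in both libraries, the exceptions being Mcm4, Cdc6 and E2f8 in library 2. Pclaf stood at 1092 and 1049 CPM in those, at 172 and 205 CPM in S-only cells and at 234 and 318 CPM in G2M-only cells, and Pcna at 467 and 524, 297 and 284, and 89.3 and 182 CPM. The S-only groups of 43 and 14 cells are small, and no test is given, since cells are not replicates.

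**Figure D4:**
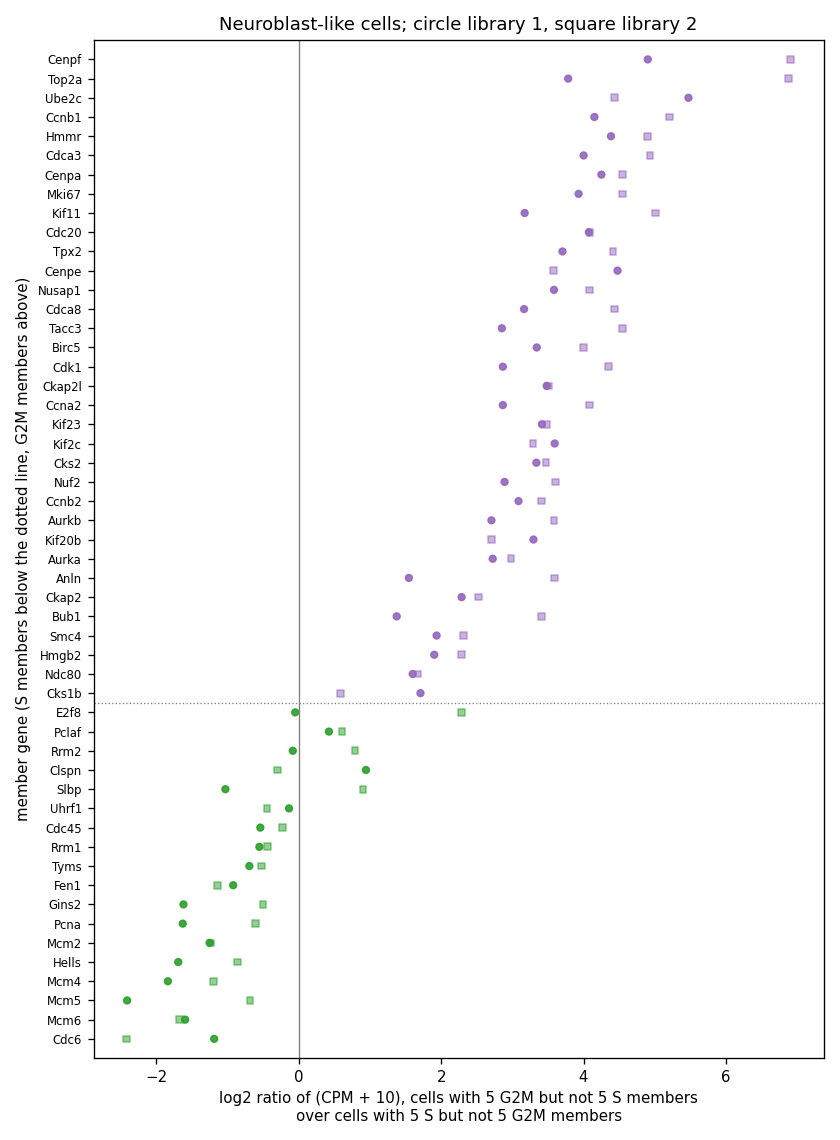
Log2 ratio of each member's level (CPM plus 10) between neuroblast-like cells with several G2M but not several S members and cells with several S but not several G2M members, the gene itself not counted; circles library 1, squares library 2. All G2M members lie right of 0 in both libraries and 13 of 18 S members lie left of 0 in both.

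Summed over members, neuroblast-like cells held 2450 and 2648 CPM of S members and 7729 and 11088 CPM of G2M members. S members made up 24.1% (23.7 to 24.4%) and 19.3% (18.9 to 19.7%) of member UMIs there. This share depends on which genes are counted, since other S and G2M genes outside the 52 gave 40.5% and 34.5% in the same cells, so no order of phases is read from it. In microglia-like cells the members gave 51.1% and 54.9% and the other genes 38.3% and 38.7%. In OPC-like cells the members gave 32.2% and 60.2%, on opposite sides of an even split, and the other genes 34.7% and 41.4%, on the same side.

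**Figure D5:**
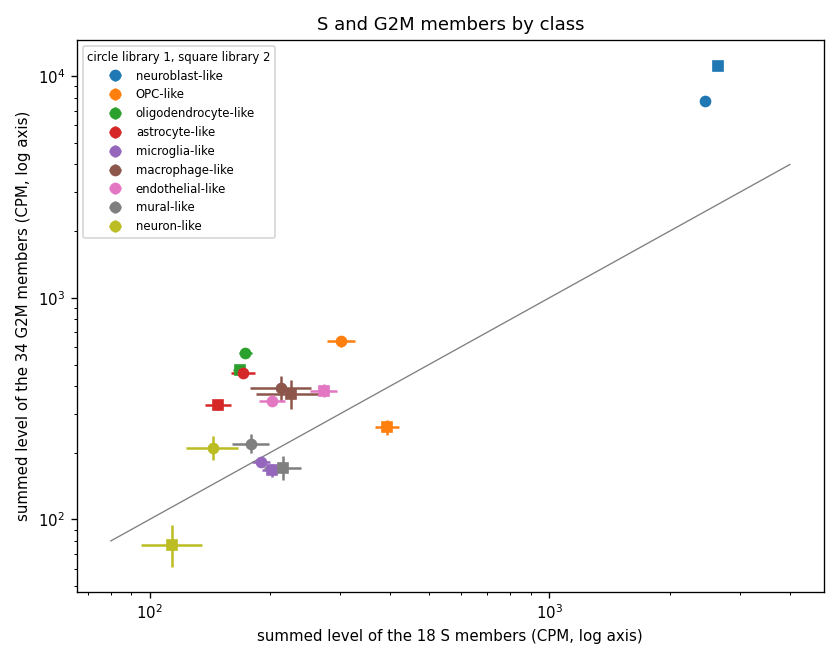
Summed level of the 34 G2M members against that of the 18 S members (CPM, log axes) per class and library, circles library 1 and squares library 2, with exact 95% Poisson intervals; the line marks equal sums. Neuroblast-like cells lie at 2450 and 2648 CPM for S and 7729 and 11088 CPM for G2M members, and the OPC-like libraries lie on opposite sides of the line, which the other S and G2M genes did not show.

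By the mean CPM of the 2 libraries, OPC-like cells were the next class for most members. They were so for 21 of the 33 G2M members that peaked in neuroblast-like cells and for 13 of the 18 S members. Against the mean of the other classes without neuroblast-like cells, 19 G2M members and 12 S members were higher, where 26.6% of all tested genes were, and 1 member, Anln, was lower, where 24.1% of all tested genes were. The medians were 1.03 for G2M and 0.89 for S members, against −0.09 for all genes. Ckap2, a spindle protein (2.70, SE 1.16, edgeR adjusted p = 0.00042), and Uhrf1 (2.30, SE 0.95, adjusted p = 0.00011) had the largest changes. Macrophage-like cells, 1 of the reference classes, had a level of 0 CPM for both genes, which raises a contrast of mean log levels and its SE. Mcm5, with 1 E2F match in its printed promoter, rose by 1.79 (SE 0.24) and Mcm6 by 1.20 (SE 0.21), while Pcna (−0.03, SE 0.13) and Slbp (0.03, SE 0.13) did not pass. The count of members called higher was 31 in all and fell to 17 with at least 500 genes required per cell and to 13 with the cell-cycle genes kept in the clustering.

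The summed G2M level of the members in OPC-like cells was 637 CPM in library 1 and 260 CPM in library 2, while the summed S level was 302 and 393 CPM. In library 2 the G2M level lay below that of oligodendrocyte-like (473), endothelial-like (382), macrophage-like (369) and astrocyte-like cells (327 CPM). There Anln made up 78.8% of the oligodendrocyte-like sum and 1.36% of the OPC-like sum. Hmgb2 made up 35.7%, 42.4% and 38.7% of the endothelial-like, macrophage-like and astrocyte-like sums and 33.0% of the OPC-like sum. By these sums OPC-like cells were not second in library 2 for the G2M members, while their S level was second to neuroblast-like cells in both libraries. The signal sat in few cells, since 16 and 31 cells with several members held 72.7% and 56.1% of the G2M UMIs and 40% and 52.6% of the S UMIs of the class. In those cells the 7 OPC markers summed to 8346 and 8177 CPM, against 10628 and 9123 CPM in the rest. The neuroblast markers summed to 763 and 427 CPM in them against 406 and 387 CPM in the rest, and the hemoglobin genes to 4226 and 6.95 CPM against 1107 and 16.2 CPM. The part of these in the member levels was not tested.

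In astrocyte-like cells 19 of 34 G2M members were called higher but only 2 of 18 S members, where 28% of all tested genes were called higher, and 5 S members were lower, where 25.4% were. The medians were 0.83 for G2M and −0.30 for S members, against −0.10 for all genes. The largest change was in Nuf2 (3.64, SE 0.59, edgeR adjusted p = 3.9e-08), followed by Ube2c (1.96, SE 0.27). The class held 110 cells, 59 and 51 in the libraries, that formed a cluster of their own at resolution 0.32, led by Ccdc153 and Tmem212, genes of motile cilia. An alternative chosen after seeing the data removed these cells, and 1 G2M member was then higher and 5 were lower, with a median of −0.42.

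The Ccdc153-led cluster met the naming rule for ependymal-like cells but was mixed. A Ccdc153 UMI was found in 17 of its 110 cells, one of Fabp7 in 90 and of Gja1 in 100, and all 8 astrocyte markers and 6 of the progenitor markers were raised in it beside the 6 ependymal ones. Against the other classes without neuroblast-like cells, 30 of 34 G2M members were higher in it and 5 of 18 S members, where 18.1% of the 15397 genes tested were. The medians were 3.41 for G2M and 0.80 for S members, against −0.13 for all genes. S members made up 13.6% and 13.3% of its member UMIs, below the neuroblast-like class in both libraries. Ube2c stood at 160 and 213 CPM, Cenpf at 188 and 115 CPM and Ccnb1 at 49.1 and 60.0 CPM, against 7.27 and 3.68, 4.63 and 0.921, and 3.31 and 0.230 CPM in the rest of the astrocyte-like class. Cells with several members made up 18 of 59 (30.5%, 19.2 to 43.9%) and 9 of 51 (17.6%, 8.40 to 30.9%), and 4 of 50 and 2 of 49 once thinned. The rest of the astrocyte-like class had 7 of 1529 and 0 of 1067, and 0 of 626 and 0 of 594 once thinned, for which the exact upper limits are 0.588% and 0.619%. Of the 25 and 9 astrocyte-like cells with several members, 18 and 9 were in the Ccdc153-led cluster. Their marker sums against the rest of the class therefore largely compare this cluster with other astrocyte-like cells. In the 25 and 9 astrocyte-like cells with several members the astrocyte markers summed to 6135 and 5043 CPM against 16337 and 18214 CPM in the rest of the class, the neuroblast markers to 940 and 1769 CPM against 197 and 120 CPM, and the ependymal markers to 3768 and 3873 CPM against 155 and 164 CPM. Within the Ccdc153-led cluster, a Sox11 UMI was found in 21 of 27 cells with several members (77.8%) and 31 of 83 others (37.3%), and one of Dcx in 6 (22.2%) and 2 (2.41%), at full depth. The part of these in the member levels was not tested.

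Nuf2 (chromosome 1, 169497934 to 169531464, minus strand), which with Ndc80 ties kinetochores to microtubules, was the member that changed most in the Ccdc153-led cluster (log2 fold change 5.41, SE 0.55, edgeR adjusted p = 1.3e-09). Its level there was 149 and 76.8 CPM, against 61.9 and 88.9 CPM in neuroblast-like cells, above them in library 1 (exact 95% intervals 117 to 189 and 56.0 to 68.2 CPM) and with overlapping intervals in library 2, and the rest of the astrocyte-like class held 15.2 and 8.75 CPM. Within the cluster, Nuf2 stood at 125 and 85.5 CPM in cells with several members and at 178 and 71.7 CPM in the others. A Nuf2 UMI was found in 10 of 18 and 3 of 9 of the former and in 17 of 41 and 14 of 42 of the latter. Nuf2, which is itself in the count of members, was therefore not lower in the cells without several members in library 1. The numbers of cells are small in both libraries. Its partner Ndc80 did not pass in this cluster (1.73, SE 0.99).

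Anln (anillin, chromosome 9, 22332012 to 22389188, minus strand), which builds the contractile ring that pinches daughter cells apart, was the only member highest outside neuroblast-like cells among the 9 classes, which do not set the Ccdc153-led cluster apart. It stood at 434 and 373 CPM in oligodendrocyte-like cells and at 33.9 and 66.4 CPM in neuroblast-like cells. Then came neuron-like (24.1 and 16 CPM), astrocyte-like (26.4 and 7.14), macrophage-like (13.4 and 18.8), endothelial-like (17.5 and 7.65), microglia-like (9.72 and 5.65), OPC-like (11.3 and 3.54) and mural-like cells (9.12 and 2.54 CPM), whose neighbours in this order overlap. Its log2 fold change in oligodendrocyte-like cells was 5.55 (SE 0.24, edgeR adjusted p = 2.2e-12). At 1000 UMIs per cell, an Anln UMI was found in 26.3% and 24.7% of oligodendrocyte-like cells and in 3.24% and 5.07% of neuroblast-like cells. Anln made up 77.3% and 78.8% of all G2M UMIs of oligodendrocyte-like cells, against 0.439% and 0.599% in neuroblast-like cells, so the summed G2M level of 562 and 473 CPM in the former is mostly this gene.

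Apart from Anln, oligodendrocyte-like cells had a mixed pattern. In all, 4 G2M and 6 S members were higher, where 34.8% of all tested genes were, and 7 G2M and 6 S members were lower, where 23.8% were. Scaled by library sizes alone, or by DESeq2, 6 members were higher and 17 lower. Pcna (0.94, SE 0.11), Fen1 (1.14, SE 0.18) and the spindle protein Tacc3 (1.23, SE 0.25) rose, and Cdk1 (−1.45, SE 0.45), Tyms (−1.41, SE 0.25) and Hmgb2 (−1.24, SE 0.21) fell.

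Vessel cells showed few changes. In endothelial-like cells 5 G2M and 6 S members were higher, where 27.6% of all tested genes were, and 0 members were lower, where 18.8% were. At an unadjusted p under 0.05 in edgeR, and by DESeq2, 0 were lower as well. Kif23 had the largest change (2.92, SE 0.30), at 15.2 and 23.4 CPM. Mki67 reached 17.3 CPM in endothelial-like cells of library 2, its highest value in any class other than neuroblast-like and OPC-like, with a mean of 9.55 CPM over both libraries. In library 2, 6 cells with several members held 45.5% of the G2M UMIs of the class, and in library 1, 12 such cells held 9.59%. Of the 6, 5 had several S members only and 1 had several of both. Of the 12, 4 had several S members only, 7 several G2M members only and 1 both. The 12 and 6 cells of libraries 1 and 2 had medians of 18448 and 15946 UMIs against 2670 and 3233 in the rest. Once thinned, 0 of 458 and 1 of 407 cells remained. Their hemoglobin genes summed to 32217 and 8.48 CPM against 5216 and 691 CPM. Oligodendrocyte markers summed to 9884 and 246 CPM against 1920 and 885 CPM, and endothelial markers to 13730 and 14704 CPM against 18329 and 20586 CPM. The part of these in the member levels was not tested. In mural-like cells 1 G2M and 1 S member were higher, where 23.2% were, and 3 G2M and 1 S member were lower, where 16.6% were. The S member that rose was Mcm6 (1.64, SE 0.22), without the other helicase subunits passing.

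Among immune cells, 1 G2M and 5 S members were higher in microglia-like cells, where 34.5% of all tested genes were, and 2 G2M members and 1 S member were lower, where 21.8% were. This split turned with the scaling, to 4 higher and 9 lower by library sizes alone and 4 higher and 7 lower by DESeq2. Slbp rose by 1.23 (SE 0.11) and Cks2 by 1.48 (SE 0.23). In macrophage-like cells 5 G2M and 3 S members were higher, where 17.4% were, and 0 were lower, where 14.4% were, also at an unadjusted p under 0.05 and by DESeq2, with Kif23 (2.54, SE 0.61) and Cenpa (2.06, SE 0.48) the largest. The level of Cenpa there was 38.4 and 29.2 CPM.

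In neuron-like cells 1 G2M and 1 S member were higher, where 26.6% of all tested genes were, and 4 G2M and 8 S members were lower, where 30.4% were. Scaled by library sizes alone, or by DESeq2, 2 were higher and 6 lower. Clspn was the S member that rose (2.43, SE 1.13). Smc4 (−2.26, SE 0.31), Hmgb2 (−2.09, SE 0.28), Mcm6 (−1.93, SE 0.41) and Rrm1 (−1.64, SE 0.30) fell furthest. Outside the neuroblast-like class, the share of members called higher was above that of all genes for both phases in OPC-like cells, for the G2M members in astrocyte-like cells and for the S members in endothelial-like cells, and at or below it for the other classes and phases. The endothelial-like count, 6 of 18 S members, lay near the 27.6% of all genes. In astrocyte-like cells only 1 of 34 G2M members was higher once the Ccdc153-led cells were removed, where 4074 of 15118 genes were. Scaling by library sizes alone moved the median log2 fold change of all genes to −0.40 in microglia-like, −0.42 in oligodendrocyte-like, 0.13 in neuron-like and 0.38 in OPC-like cells, and DESeq2 moved it to −0.23, −0.22, 0.09 and −0.03, from −0.0032, −0.03, −0.25 and −0.09.

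A separate progenitor-like class did not form in these cells at resolution 0.08 or 0.32. It formed at 0.32 when only cells with under 20% mitochondrial UMIs were kept, as 358 cells (217 and 141) led by Hist1h2ap and Hist1h1b, beside 1109 neuroblast-like cells. All 34 G2M members (median log2 fold change 4.12) and all 18 S members (2.19) were higher in it than in the neuroblast-like cells, where 16.1% of 15118 genes were and the median of all genes was 0.01. The largest changes were in Mki67 (5.73, SE 0.55) and the spindle protein Hmmr (5.61, SE 0.62), and Gins2 had the smallest (1.64, SE 0.29). Histone genes led this cluster and were not left out of the clustering, so this class is not independent of S phase.

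Other cell-cycle genes were counted from lists of 66 further G2M genes, 47 further S genes, 37 genes of wider cell-cycle function and 22 regulators. These lists too were chosen with earlier results of these data known, so their counts are not independent support. In neuroblast-like cells 66 of 66 further G2M genes were higher (median log2 fold change 4.16), led by Pbk (6.43), Aspm (6.13) and Kif4 (6.09), and 46 of 46 further S genes tested were (3.27), led by Cdca7 (5.42), Tk1 (5.03) and Rad51ap1 (4.75). Of the wider genes 36 of 37 were higher, led by Mxd3 (5.71) and Esco2 (5.56), and 1, Rrm2b, was lower. The regulators split, with 13 of 21 tested higher and 3 lower. Of all tested genes, 30.4% were higher and 28.7% lower in this comparison. Ccnd2 rose by 5.63 (SE 0.15), E2f7 by 3.90 and E2f1 by 3.63, while Ccnd1 and Ccnd3, the other D-type cyclins, and Rbl2 were the 3 that fell.

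In OPC-like cells 23 of the 66 further G2M genes were higher and 1 lower, led by Sapcd2 (6.14), Cit (3.0) and Aspm (2.73). Of the further S genes 26 of 46 were higher and 2 lower, led by Chek1 (2.11), Dscc1 (1.80) and Rad51ap1 (1.76), and of the wider genes 17 of 37 were higher and 4 lower, led by Lmnb1 (1.97), Cenpm (1.92) and Esco2 (1.77). Of the 21 regulators tested 5 rose and 5 fell, shares near those of all tested genes, of which 26.6% were higher and 24.1% lower. The largest changes among the regulators were in Gas1 (4.19), Ccnd1 (3.78) and Btg2 (−2.68). The D-type cyclin that rose thus differed between the classes, Ccnd2 in neuroblast-like and Ccnd1 in OPC-like cells, and that difference was not tested.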

How the data were processed

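Single-cell RNA-seq counts were deposited by the authors as 1 matrix of raw UMI counts per gene and cell barcode for each library, made with Cell Ranger (4.0 in the submitters' notes, 4.0.0 in the matrix headers) on mm10, after 10x 3' library preparation with kit versions that the labels do not assign to libraries. The libraries held 44597660 and 37982720 UMIs. Cells with at least 300 genes were kept, and Scrublet in scanpy 1.11.5 (expected rate 6%) marked 115 and 152 doublets, which were left out. In Seurat 5.3.0 (R 4.3.3) the libraries were joined by CCA on 2000 variable genes and 30 components and clustered at resolution 0.08, with 0.32 as an alternative. A cluster was named when at least 3 markers were raised at least 2-fold (10 CPM added) and 1 was among its 100 leading genes. The limit of 100 was set after the data were seen, and 50 gave the same names at 0.08. Erythroid-like cells (86 and 11) were left out of the fits.

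UMIs were summed per library and class and fitted with edgeR 4.0.16 (quasi-likelihood test, TMM factors, filterByExpr, prior count 2, library as a block because the classes of a library come from 1 suspension), with Benjamini-Hochberg adjustment over 15202 genes at 0.05. Neuroblast-like cells were set against the mean log level of the other classes, and each other class against that of the rest without neuroblast-like cells. Printed fold changes include the prior count. The SE beside each was derived from the F statistic and the contrast without the prior count. It therefore need not match the printed fold change, above all where a class had a count of 0. DESeq2 1.42.0, library sizes alone, no filter, no block, 1 library left out, and other cell filters and clusterings were alternatives. On counts simulated for the neuroblast-like comparison (15202 genes, 200 changed 4-fold), 92% were recovered with 9 false calls. Apart from the changed genes, the simulated classes shared a single profile, and all genes a single dispersion. In the data 30.4% of genes were called higher and 28.7% lower, so the simulation does not give the rate of false calls there. Levels carry exact Poisson and shares exact binomial 95% intervals (scipy 1.17.1), and cells were thinned at random to 1000 UMIs for single genes and 2000 for several members.

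Members given with full values were, for each role, the 2 with the widest fold between their top and second class, and any member not highest in neuroblast-like cells. Others named, such as Hmgb2, Pcna and Nuf2, were picked after their values were seen. Of other lists, the 3 genes called with the largest change were named, except where a gene is not reported here. The members and lists were chosen with earlier results of these data known. Gene positions are from GENCODE M21 on GRCm38.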

Additional observations from a re-analysis of the deposited data

Results flagged for a closer look

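Barcodes marked as doublets, which only the alternative with doublets kept uses, also held the members. In library 1, 10 of 115 doublet barcodes (8.70%, exact 95% interval 4.25 to 15.4%) had at least 5 S or 5 G2M members, against 6.93% of 6783 kept cells. In library 2, 17 of 152 (11.2%, 6.65 to 17.3%) did, against 5.01% of 5212 kept cells. The doublet barcodes had medians of 9343 and 11174 UMIs, above the 3812 and 5305 of kept cells, and the part of depth in these shares was not tested. The interval in library 1 includes the share of the kept cells.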

How the results depend on the processing

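The 52 members stayed higher in neuroblast-like cells under each of the 10 alternatives with a test, and without the library (replicate) block the count was 52, with the smallest log2 fold change at 1.28. Without library 2 and without library 1, which give values and no test, the members' log2 fold changes ran from 0.47 to 6.37 and from 1.89 to 7.38. The block changed no count of calls by over 1.5 times in any class.

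Members called higher in OPC-like cells (31) fell to 17 with at least 500 genes per cell and 13 with cell-cycle genes kept in the clustering, and those lower (1) went to 0 and 2. In astrocyte-like cells those higher (21) fell to 1 with doublets kept, 1 with at least 500 genes, 6 under 20% mitochondrial UMIs, 12 with cell-cycle genes kept in, 1 at resolution 0.32 and 1 with the Ccdc153-led cells removed, and those lower (5) rose to 13, 18, 10, 9, 16 and 11 in the same order. The median of the G2M members there (0.83) turned to −0.49 with doublets kept, −0.91 with at least 500 genes, −0.88 at 0.32 and −0.42 with the cells removed. Endothelial-like cells went from 0 lower to 1 (all genes with a UMI, doublets kept, cell-cycle genes kept in, 0.32) or 3 (at least 500 genes). In macrophage-like cells the G2M median (0.22) turned to −0.087 with at least 500 genes and −0.081 at 0.32. In microglia-like cells those higher (6) rose to 11 with doublets kept, those lower (3) rose to 9 by library sizes, 13 with all genes, 7 by DESeq2, 6 with at least 500 genes and 5 at 0.32, and the S median (0.036) turned to −0.35 by library sizes, −0.077 with all genes and −0.19 by DESeq2. Mural-like cells went from 2 higher to 1 (at least 500 genes, under 20% mitochondrial, 0.32) and from 4 lower to 15 with all genes and 2 at 0.32. In neuron-like cells those higher (2) went to 1 with at least 500 genes and at 0.32 and to 6 under 20% mitochondrial, those lower (12) to 6 by library sizes and DESeq2 and 7 under 20% mitochondrial, where the G2M median (−0.66) turned to 0.23. Oligodendrocyte-like cells went from 10 higher to 6 by library sizes and DESeq2. The causes were not tested.

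The neuroblast-like share of cells with several members (mean 31.4%; 28.7 to 34.1% by library) was 41.5% with at least 3, 26.4% with at least 8 and 36.3% thinned. The S share of member UMIs there (21.7%; 19.3 to 24.1%) was 37.5% with the other lists. E2F matches fell from 44.4% to 16.7% of S and from 6.67% to 0% of G2M promoters with TTTCCCGC alone. The planned comparison of progenitor-like with neuroblast-like cells was not run as designed, since no cluster took that name at 0.32.

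With 2 libraries of 1 condition, each p-value measures how far class differences vary between these libraries. The 3′ counts of low members, such as Bub1 or Cdc6 outside neuroblast-like cells, often rest on few UMIs.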
